A study of Mus musculus with 6 samples.

Results

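Krüppel-like factors and immediate early genes were followed in mouse neocortical cells after forced expression of Insm1, a zinc-finger factor of neural progenitors. The genes were taken by symbol: the Klf family, the Egr, Fos, Jun, Nr4a and Ier genes, Atf3, Maff, Arc, Npas4, Dusp1, the Zfp36 genes, Btg3 and the Csrnp genes. They come to 47 of the 22001 genes in the count table, and 43 of the 47 were among the 13560 genes with enough counts to be tested. Egr3, Egr4, Npas4 and Klf17 were not. Both groups were electroporated in utero at E13.5, and mCherry-positive cells of the neocortex were sorted 24 h later, at E14.5. The control group carried a plasmid for mCherry alone and the Insm1 group a plasmid for Insm1 and mCherry, and each group has 3 libraries. Neither the promoter of the plasmids nor the mouse strain is given in the sources used here. No label says whether the 3 libraries of a group are from different litters or cultures, so p-values speak only of the spread seen among the libraries, some of which may be technical.

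Immediate early genes are transcribed within minutes of a stimulus, without new protein synthesis, when kinases activate factors such as SRF and CREB that already sit at their promoters. Many encode transcription factors: Fos and Jun proteins pair to form AP-1, Egr proteins bind GC-rich sites through zinc fingers, and Nr4a proteins are orphan nuclear receptors. Krüppel-like factors share a set of C-terminal zinc fingers that bind GC-rich and CACCC sequences, and differ in the cofactors they recruit. In brain tissue the early genes also respond to dissociation and sorting, so their level in sorted cells need not be that in the embryo.

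Library totals lay between 30017645 and 31645135 counts. Insm1 itself was at 222, 331 and 371 CPM (counts scaled to library size by the TMM method) in controls 1, 2 and 3 and at 1570, 2173 and 1436 CPM in Insm1 libraries 1, 2 and 3. Neocortical markers were high, with Tubb3 at 1746 ± 80.0 CPM and Hes5 at 1260 ± 211 CPM in the controls (SD, n = 3). Summed markers of endothelium (0.909 to 2.88 CPM), mural cells (1.16 to 4.14 CPM) and meningeal fibroblasts (2.63 to 3.89 CPM) were near 0 in all 6 libraries. Markers of red blood cells were not, at 715, 5260 and 307 CPM in controls 1, 2 and 3 and 3498 to 4894 CPM in the Insm1 libraries. Control 2 stood apart from the other controls in these and in markers of microglia and of Cajal-Retzius cells. These markers are given beside genes in which control 2 also stood apart. Within the Insm1 group such genes need not follow the markers.

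Only Klf6 and Jun passed the test. Klf6, a transcriptional activator that promotes axon growth in cultured rodent neurons, was at 69.6, 72.2 and 74.2 CPM in controls 1, 2 and 3 and at 45.6, 39.0 and 47.9 CPM in Insm1 libraries 1, 2 and 3. The groups did not overlap, and each group was tight. By edgeR's quasi-likelihood test Klf6 fell 1.63-fold (log2 fold change -0.71, standard error 0.10, adjusted p = 0.00654). Dropping any single library kept the call, with adjusted p between 0.0078 and 0.0426. Jun, the AP-1 subunit c-Jun, was at 241, 244 and 287 CPM in the controls and at 207, 162 and 170 CPM in the Insm1 libraries. Here too every Insm1 library lay below every control. Jun fell 1.43-fold (log2 fold change -0.52, standard error 0.10, adjusted p = 0.0237 by edgeR), and the call was lost without control 3 (adjusted p = 0.115), Insm1 library 2 (0.089) or Insm1 library 3 (0.101). Summed markers of apical progenitors, 7 of 11 of which fell in the same fit and none of which rose, moved with both genes, from between 3612 and 4209 CPM in the controls to between 2498 and 3066 CPM in the Insm1 libraries. Their part in the result was not tested. In bulk RNA, fewer cells of a type and less RNA per cell cannot be told apart.

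The share of these genes called lower was above that of all genes with each tool, on few calls, and the excess was not tested. The 2 lower calls are 4.65% of the 43 tested, against 2.12% of all genes called lower and 3.35% called in either direction. None was called higher, against 1.23% of all genes. At an unadjusted p below 0.05 edgeR had 7 lower (16.3%), where 9.69% of all genes were, and 5 higher (11.6%), where 7.56% were. DESeq2 called 6 of 42 lower, which is 14.3% against 4.64% of all genes; they were Klf6, Jun, Zfp36l1, Nr4a2, Nr4a3 and Csrnp3. It called Jund and Ier2 higher, which is 4.76% against 3.32%. With limma-voom the calls were Klf6 and Jun, both lower, and none higher, against 1.71% and 1.09% of all genes. The 3 libraries of each group lay wholly apart in 8 genes that were lower with Insm1 (18.6%) and 6 that were higher (14.0%), where 11.8% and 10.4% of all tested genes did so. The median log2 fold change was -0.18, against -0.01 for all genes tested, with 26 negative and 17 positive. Among the 27 that reached 5 CPM in at least 3 libraries the median was -0.008. Summed over the 47, the level was 2139, 2124 and 2039 CPM in controls 1, 2 and 3 and 2078, 2010 and 2104 CPM in the Insm1 libraries, and the groups overlapped.

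**Figure D1:**
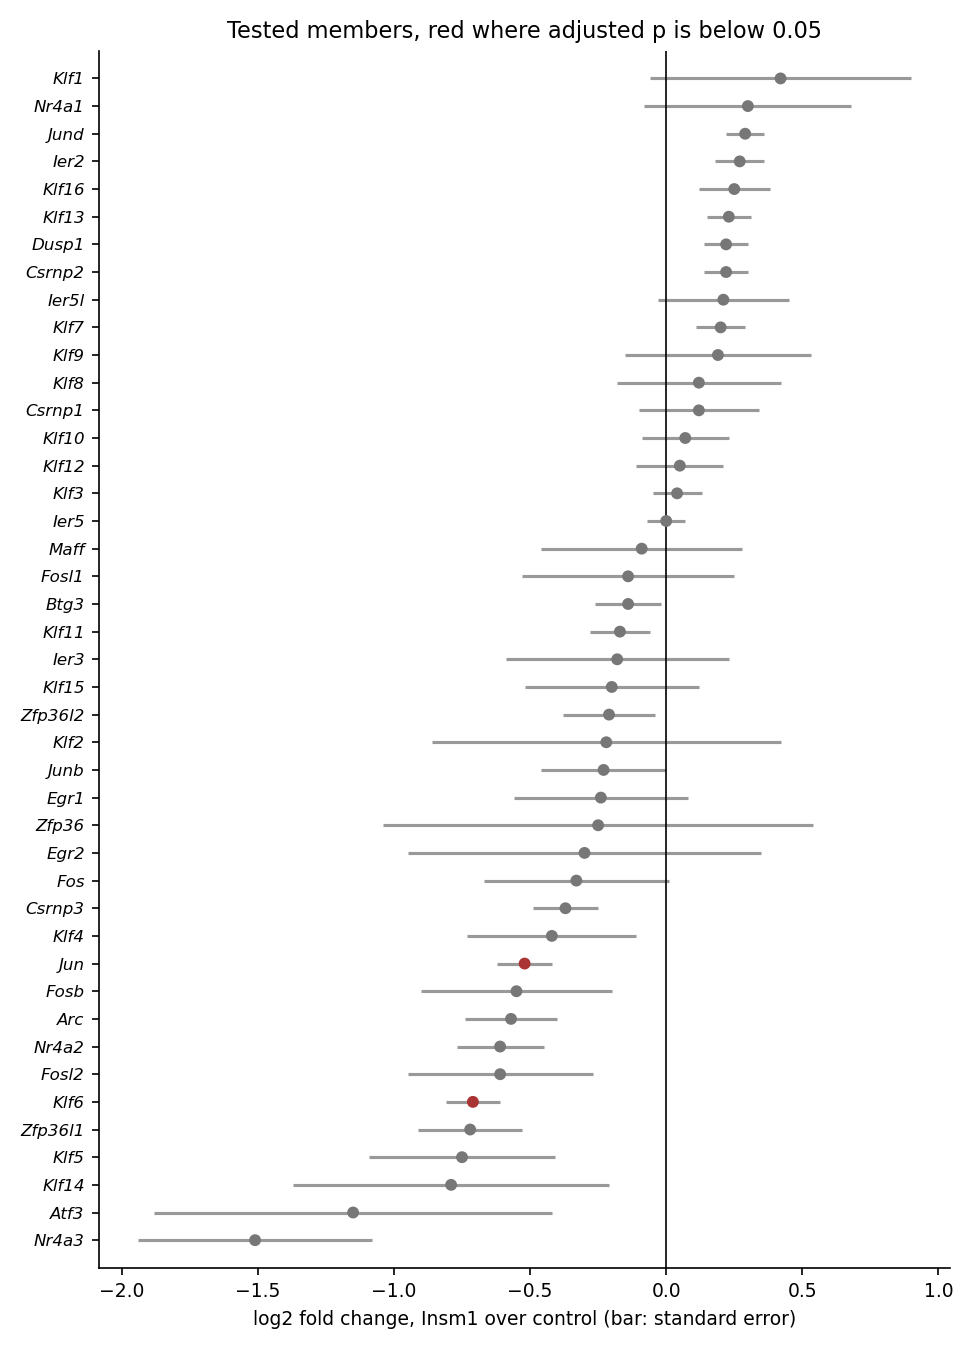
Log2 fold changes of the 43 tested genes, Insm1 over control, with bars of 1 standard error; red points have an edgeR adjusted p below 0.05. Klf6 (-0.71) and Jun (-0.52) are the red points, and genes further to the left, Nr4a3, Atf3, Klf14, Klf5 and Zfp36l1, have wider bars.

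The sequences upstream of the genes that fell are shown because both hold the same 8 letters, TGACATCA, a variant of the cAMP response element that ATF and Jun proteins can bind. They are the 250 bases before the RefSeq start on GRCm38.p6, written in the gene's direction, with TGACATCA in capitals. The Jun window is chr4:95052223-95052472, minus strand, and the Klf6 window is chr13:5861239-5861488, plus strand.
Jun: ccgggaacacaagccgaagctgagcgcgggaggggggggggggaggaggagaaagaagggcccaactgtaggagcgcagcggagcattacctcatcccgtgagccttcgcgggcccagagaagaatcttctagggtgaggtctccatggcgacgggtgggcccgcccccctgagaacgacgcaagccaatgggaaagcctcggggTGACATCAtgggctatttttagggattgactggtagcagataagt
Klf6: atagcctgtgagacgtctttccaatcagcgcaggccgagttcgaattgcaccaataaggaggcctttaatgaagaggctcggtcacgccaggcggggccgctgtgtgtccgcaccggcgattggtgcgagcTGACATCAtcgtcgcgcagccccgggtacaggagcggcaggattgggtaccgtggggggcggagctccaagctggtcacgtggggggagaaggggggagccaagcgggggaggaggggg
In GENCODE M21 (GRCm38) Jun is annotated at chr4:95049034-95052222, minus strand, and Klf6 at chr13:5861482-5870394, plus strand. That annotation places the last 7 bases of the Klf6 window in an exon. The match lies at -45 to -38 upstream of Jun and at -119 to -112 upstream of Klf6. RefSeq windows were found for 37 of the 47 genes, and the counts below are for the first window of each gene, searched on both strands. No window was found for Arc, Egr1, Egr3, Fosl1, Ier2, Klf5, Klf10, Klf14, Klf16 and Zfp36l2, so nothing is said of their sites. TGACATCA was in 2 of the 37 (5.41%), these 2. It was in 1.44% of 10028 first windows of tested genes and in 3.02% of 27025 first windows over all RefSeq genes. The difference was not tested. TGACATCA is singled out here because the 2 called genes hold it, so its share is not independent of the calls. The 37 include Egr4, Npas4 and Klf17, which were not among the tested genes. Maff holds TGACATCA in another of its windows. TGACGTCA was in 1 (Dusp1; 2.79% of tested genes), TGANTCA in 2 (Klf9 and Zfp36l1; 3.9%), and the CArG box, the site of SRF, in 1 (Zfp36; 1.24%). GGGCGG was in 25 (67.6%, against 60.0%), CACCC in 24 (64.9%, against 57.6%) and CCAAT in 14 (37.8%, against 36.9%), and matches of the first and second of these can share bases. In windows after the first, TGACGTCA was in Maff, TGANTCA in Csrnp1, and the CArG box in Egr2 and Klf8. Only these 250 bases and exact matches to each pattern were searched. A gene without a match may hold the site further upstream or in other letters. A match is a description of the letters, and these data hold no measure of binding.

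Of the Jun genes Jun alone passed. Jund, the AP-1 subunit that is least dependent on a stimulus, was at 336, 338 and 300 CPM in the controls and at 414, 370 and 406 CPM in the Insm1 libraries. The groups did not overlap, but the log2 fold change of 0.29 (standard error 0.07) had an adjusted p of 0.0528 and did not pass in edgeR. It passed in DESeq2 (0.00396), with a filter at 5 CPM (0.0412) and with no filter (0.0444), and with single libraries left out the adjusted p was between 0.0512 and 0.206. Exons of Jund overlap those of Gm11175, and the library type marks no strand. On the deposited TPM scale, which is per length, the ratio of Jund to Jun was 2.66, 2.65 and 2.00 in the controls and 3.83, 4.37 and 4.55 in the Insm1 libraries. This ratio was picked after the values were seen and was not tested. Of the summed TPM of Jun, Junb and Jund, Jun held 28.8% ± 3.53 (SD, n = 3) in the controls and 18.9% ± 1.44 (SD, n = 3) in the Insm1 libraries. Junb held at most 2.21% in any library, and its groups overlapped at 13.3 to 26.7 and 15.9 to 20.6 CPM; it shares exon sequence with Prdx2.

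**Figure D2:**
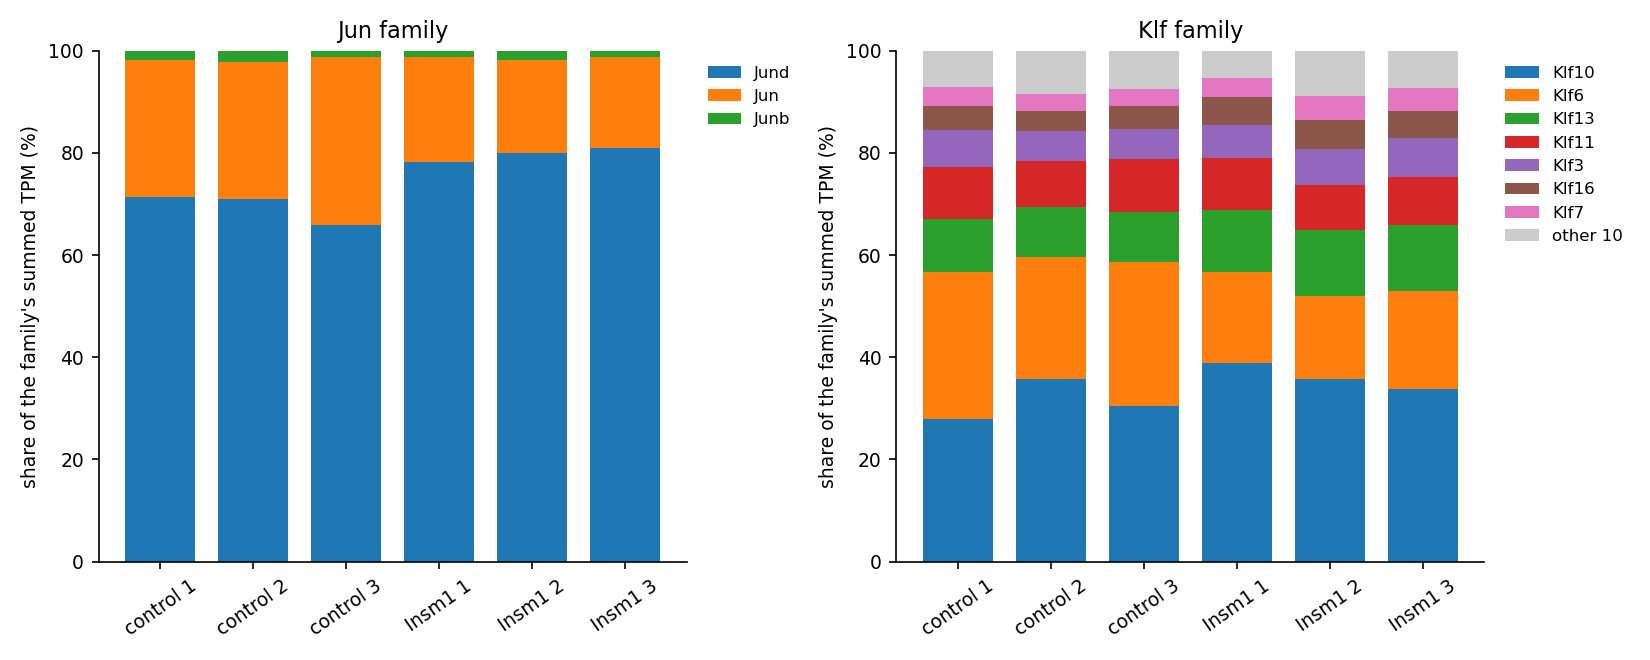
Share of each gene in the summed TPM of its family, in percent, for the Jun genes (left) and the 17 Klf genes (right), 1 bar per library. Jun took 26.8 to 32.9% of its family in the controls and 17.8 to 20.5% in the Insm1 libraries, and Klf6 took 23.8 to 28.7% and 16.2 to 19.2% of its own.

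Fos, the partner of Jun in AP-1, and Egr1 were each highest in control 1. Fos was at 68.8, 29.2 and 36.9 CPM in controls 1, 2 and 3 and at 26.0, 37.8 and 43.4 CPM in Insm1 libraries 1, 2 and 3. Control 1 stood alone and the rest overlapped. The log2 fold change was -0.33 with an approximate 95% interval of -1.0 to 0.33 (adjusted p = 0.718), and turned to 0.12 without control 1. Egr1, the only Egr gene at a high level, was likewise at 234 CPM in control 1, against 113 and 119 CPM in the other controls and 120, 119 and 155 CPM in the Insm1 libraries. Its log2 fold change was -0.24 (interval -0.87 to 0.39, adjusted p = 0.799) and turned to 0.19 without control 1. Summed heat-shock genes were at 7439, 6745 and 7330 CPM in controls 1, 2 and 3. In Insm1 libraries 1, 2 and 3 the sums were 7010, 7423 and 7321 CPM, so control 1 and Insm1 library 2 were nearly level. Much of each sum was Hspa8, at 3201, 2821 and 3055 CPM in the controls and 3003, 3211 and 3180 CPM in the Insm1 libraries. The sums therefore say little of scarce genes on the list. Hspa1a was at 0.907, 1.56 and 1.24 CPM in the controls and 0.84, 7.26 and 0.711 CPM in the Insm1 libraries. Hspa1b was at 1.59, 1.14 and 2.19 CPM and at 1.33, 5.12 and 1.36 CPM. The part of the heat-shock genes in the values of Fos and Egr1 was not tested. Egr2 had 10 to 39 counts a library. Egr3 had 5, 9 and 7 counts in the controls and 0, 0 and 3 in the Insm1 libraries, too few to be tested, and Egr4 had 1 count in all.

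The remaining AP-1 genes were low. Fosb was at 4.89, 2.17 and 4.80 CPM in the controls and 2.55, 2.43 and 3.10 CPM in the Insm1 libraries. Fosl2 was at 8.13, 3.44 and 5.42 CPM and at 3.68, 2.75 and 4.69 CPM. In both genes control 2 lay among the Insm1 libraries or below them, and neither passed (adjusted p = 0.488 and 0.419 by edgeR). Fosl1 and the small Maf gene Maff were at 1.26 to 2.88 CPM in every library, and Fosl1 shares exon sequence with Ccdc85b. Of the 9 AP-1 and related genes, 8 had a negative fold change and Jund alone a positive one, where 7031 of all 13560 tested genes were negative. Of the 8 only Jun was called, and the signs of Atf3, Fos, Fosl1 and Maff turned with single libraries left out.

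Atf3, a stress-induced relative of the Fos and Jun genes, was at 11.4 CPM in control 2 and at 1.94 and 2.42 CPM in controls 1 and 3. The Insm1 libraries were at 1.65, 4.02 and 1.39 CPM. Zfp36, which encodes the mRNA decay protein tristetraprolin, was at 2.62, 23.5 and 5.68 CPM in controls 1, 2 and 3 and at 10.2, 9.63 and 7.05 CPM in the Insm1 libraries, an 8.97-fold range among the controls. Ier3, an early gene linked to cell survival, was at 7.72 CPM in control 2 and at 2.40 to 4.07 CPM elsewhere. Klf2, known from endothelium and white blood cells, was at 3.25 CPM in control 2 and 3.08 CPM in Insm1 library 2, against 0.646 to 1.34 CPM in the other 4. These 4 genes were singled out after their values were seen. Summed markers of microglia were at 2.98, 82.4 and 10.6 CPM in controls 1, 2 and 3 and at 14.2, 45.3 and 20.9 CPM in Insm1 libraries 1, 2 and 3, so control 2 was the highest and Insm1 library 2 the second. The leading ones, Csf1r, C1qb and C1qc, were at 19.7, 14.6 and 13.2 CPM in control 2. None of the 10 markers was at 0 in every library, and none of the 10 was called. The red blood cell sum was also highest in control 2, at 5260 CPM against 715 and 307 CPM in controls 1 and 3. It was at 4894, 4831 and 3498 CPM in Insm1 libraries 1, 2 and 3. All 7 blood markers had a positive fold change and none was called, Hbb-y being the most abundant. The part of either list in the values of these 4 genes was not tested. Without control 2 the log2 fold change of Zfp36 turned from -0.25 to 1.11 (adjusted p = 0.102), that of Ier3 from -0.18 to 0.52, that of Klf2 from -0.22 to 0.46 and that of Atf3 from -1.15 to 0.11, and none of the 4 was called.

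**Figure D3:**
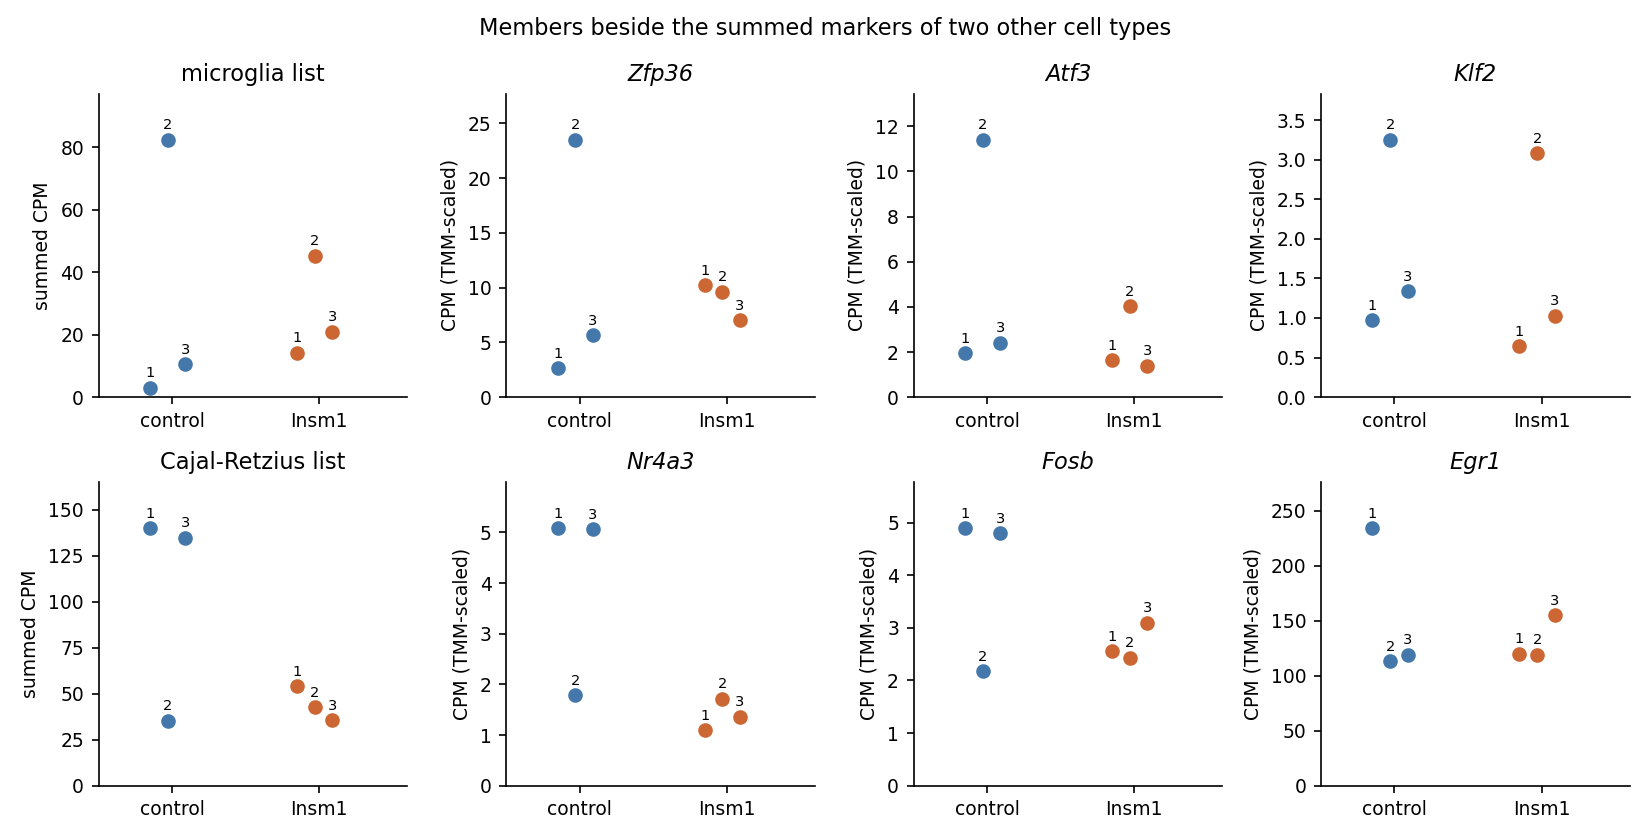
Values in each library (numbered by replicate) of summed microglia markers with Zfp36, Atf3 and Klf2 (top), and of summed Cajal-Retzius markers with Nr4a3, Fosb and Egr1 (bottom), all in TMM-scaled CPM. Control 2 is the highest library in each top panel and lies close to the Insm1 libraries in each bottom panel; in the Egr1 panel control 1 is highest, at 234 CPM.

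Of the orphan receptors, Nr4a2 and Nr4a3 were lower with Insm1 without passing in edgeR. Nr4a2 (Nurr1), a receptor found in the deepest cortical neurons and required for midbrain dopamine neurons, was at 40.2, 43.3 and 43.1 CPM in the controls and at 35.0, 27.0 and 21.1 CPM in the Insm1 libraries. The groups did not overlap, and edgeR gave a log2 fold change of -0.61 (standard error 0.16, adjusted p = 0.0792). It passed without Insm1 library 1 (0.0237), with a filter at 5 CPM (0.0476) and in DESeq2 (0.00759). Nr4a3 was at 5.08, 1.78 and 5.06 CPM in the controls and at 1.10, 1.72 and 1.36 CPM in the Insm1 libraries, the lowest fold change of the 43 at -1.51 (standard error 0.43, adjusted p = 0.0963). Control 2 lay just above the Insm1 libraries. Without control 2 the log2 fold change was -1.86 and passed (0.011), and DESeq2 also called it (0.0218). Summed Cajal-Retzius markers were at 140, 35.4 and 135 CPM in controls 1, 2 and 3 and at 54.1, 42.8 and 35.7 CPM in the Insm1 libraries, with all 6 markers negative and none called; Reln made up most of the sum, at 29.4 CPM in control 2, and Trp73 was at 0.0649 CPM there. Their part in the values of Nr4a3 was not tested. Nr4a1 was at 2.59 to 6.90 CPM over the 6 libraries, and its groups overlapped (adjusted p = 0.779).

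Ier2, Ier5 and Dusp1 were each above 100 CPM in every library, and none of them passed in edgeR. Ier2, a nuclear protein of the early response, was at 124, 130 and 104 CPM in the controls and at 145, 144 and 144 CPM in the Insm1 libraries. The groups did not overlap, and the log2 fold change of 0.27 (standard error 0.09) had an adjusted p of 0.126 in edgeR and 0.0485 in DESeq2. Ier5 was at 106, 110 and 118 CPM and at 113, 112 and 110 CPM, with a log2 fold change of 0.00345 and an approximate 95% interval of -0.13 to 0.14. Dusp1, the phosphatase that switches off MAP kinases, was at 104, 121 and 117 CPM in the controls and at 139, 122 and 137 CPM in the Insm1 libraries (log2 fold change 0.22, adjusted p = 0.211), and shares exon sequence with Ergic1. Ier5l was at 12.3 to 26.7 CPM in the controls and 20.6 to 24.9 CPM in the Insm1 libraries. Per length, the most abundant of the 47 in the controls were Jund at 1734 ± 77.2 TPM, Jun at 720 ± 87.6 TPM, Ier2 at 698 ± 64.5 TPM, Dusp1 at 347 ± 29.1 TPM, Ier5 at 303 ± 22 TPM and Egr1 at 268 ± 116 TPM (SD, n = 3). Jun and Ier2 did not differ beyond their spread in the controls, and the ranges of Dusp1, Ier5 and Egr1 overlapped. In the Insm1 libraries Ier2, at 807 TPM in each library, lay above Jun at 549, 434 and 457 TPM.

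**Figure D4:**
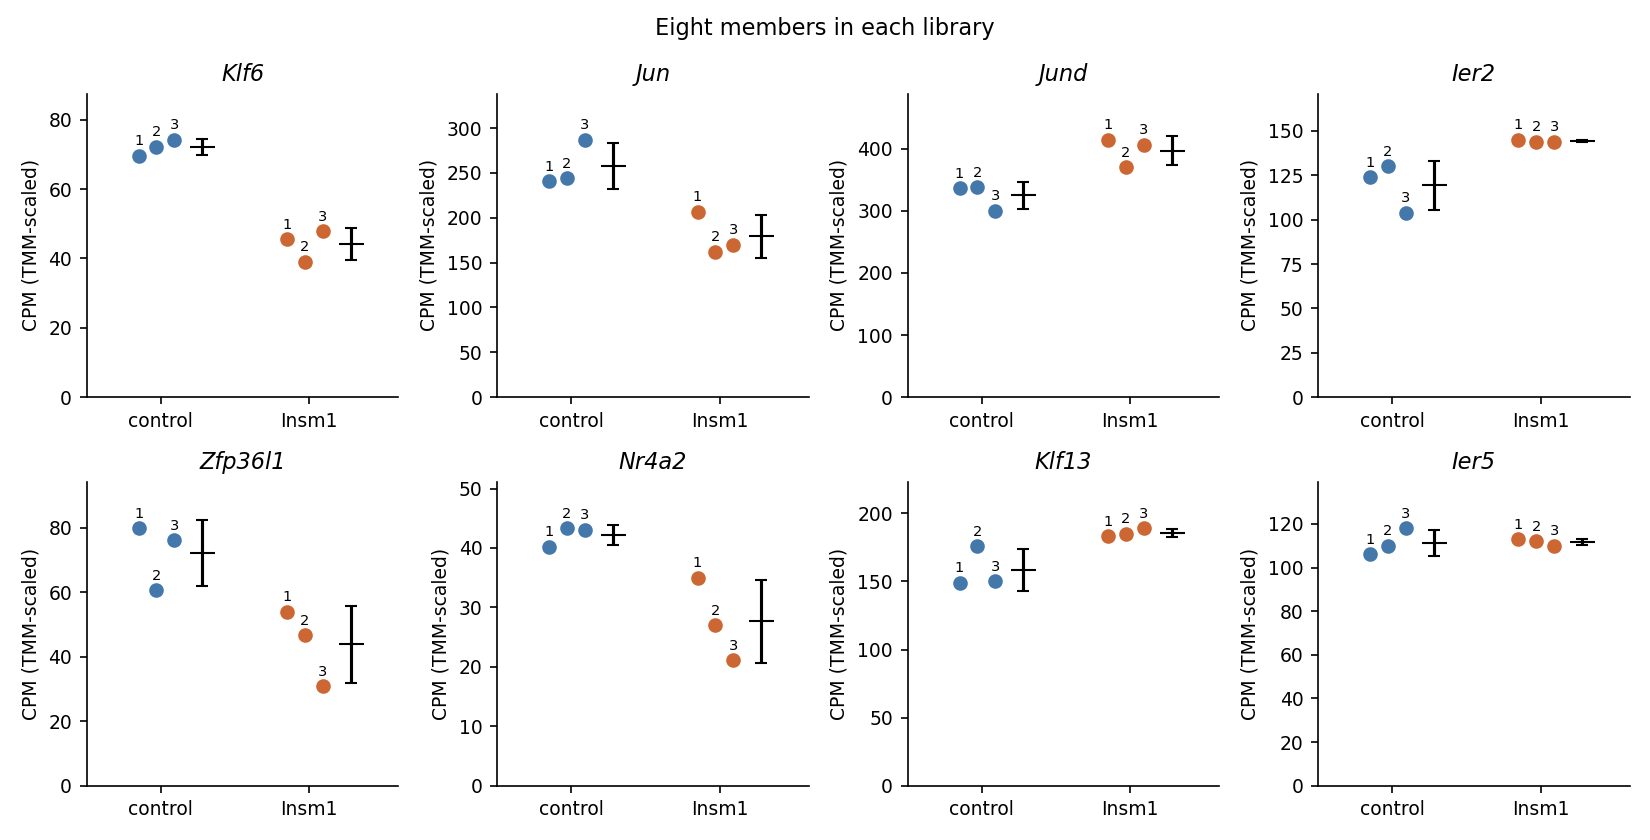
TMM-scaled CPM of 8 genes in each library, with the replicate number above each point and the mean and SD (n = 3) beside them. Klf6 and Jun are lower with Insm1 and passed the test; Jund, Ier2 and Klf13 (higher) and Zfp36l1 and Nr4a2 (lower) have groups that do not overlap but did not pass, and Ier5 overlaps.

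Genes of neuronal activity were low. Arc, whose protein acts at synapses, was at 12.0, 12.5 and 11 CPM in the controls and at 7.85, 9.17 and 6.95 CPM in the Insm1 libraries, groups that did not overlap (log2 fold change -0.57, standard error 0.17, adjusted p = 0.12). Npas4, a factor induced by calcium entry in neurons, had 24, 0 and 8 counts in the controls and 15, 7 and 10 in the Insm1 libraries.

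The mRNA decay factor Zfp36l1, a relative of tristetraprolin that also binds AU-rich elements, was at 79.8, 60.6 and 76.1 CPM in the controls and at 54.0, 46.7 and 30.8 CPM in the Insm1 libraries. The groups did not overlap. The log2 fold change of -0.72 (standard error 0.19) had an adjusted p of 0.0835 in edgeR, passed without control 2 (0.0399) and in DESeq2 (0.00163). The apical progenitor sums given above moved with it. Zfp36l2 was at 15.4 to 18.5 CPM and 11.9 to 16.9 CPM (adjusted p = 0.616), and the antiproliferative gene Btg3, which shares exon sequence with Cxadr, at 26.3 to 29.1 CPM and 21.7 to 26.9 CPM (adjusted p = 0.627).

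The 3 Csrnp genes, which encode cysteine- and serine-rich nuclear proteins, did not pass in edgeR. Csrnp2 was at 109, 128 and 118 CPM in the controls and 130, 145 and 139 CPM in the Insm1 libraries (log2 fold change 0.22, adjusted p = 0.174). Csrnp3 was at 64.3, 64.8 and 76.7 CPM and at 44.9, 53.4 and 60.5 CPM (log2 fold change -0.37, adjusted p = 0.139 in edgeR and 0.049 in DESeq2). In both genes the groups did not overlap. Csrnp1 was at 4.28 to 5.72 CPM over the 6 libraries.

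In the Klf family 1 of 16 tested genes fell and none rose. The median log2 fold change of the 16 was 0.05, with 9 positive and 7 negative. Klf6 held 26.9% ± 2.68 (SD, n = 3) of the summed TPM of the 17 Klf genes in the controls, next to Klf10 at 31.4% ± 4.0, and 17.7% ± 1.47 in the Insm1 libraries, where Klf10 held 36.2% ± 2.57. The stacked shares by library show this as a narrower Klf6 band in each Insm1 library. Klf7 is the closest relative of Klf6 and is also known for axon growth. It was at 93.7, 104 and 90.1 CPM in the controls and at 98.0, 115 and 117 CPM in the Insm1 libraries. The groups overlapped, with a log2 fold change of 0.20 and an approximate interval of 0.02 to 0.38. By edgeR the unadjusted p was 0.0506 and the adjusted p 0.292.

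The other activators of the family were scarce. Klf5 was at 2.40, 3.02 and 2.81 CPM and at 1.68, 1.20 and 2.00 CPM (log2 fold change -0.75, adjusted p = 0.296). Klf4, a pluripotency factor that restrains axon growth in rodent neurons, was at 2.78 to 4.06 CPM and 2.00 to 3.07 CPM (adjusted p = 0.572). The erythroid factor Klf1 had the highest fold change of the 43, at 0.42, on 18 to 30 counts a library (adjusted p = 0.746 by edgeR). It was at 0.583, 0.681 and 0.620 CPM in controls 1, 2 and 3 and at 0.970, 0.616 and 0.937 CPM in Insm1 libraries 1, 2 and 3. The part of red blood cells, whose sums are given above, was not tested.

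Of 6 factors that recruit the SIN3 corepressor 4 had a positive and 2 a negative fold change, and none passed. Klf13 was at 149, 176 and 150 CPM in the controls and at 183, 185 and 189 CPM in the Insm1 libraries, with groups apart (log2 fold change 0.23, adjusted p = 0.154), and passed only without control 2 (0.0304). Klf16 was at 13.2 ± 0.347 CPM in the controls and 15.7 ± 0.351 CPM in the Insm1 libraries (SD, n = 3), also apart (log2 fold change 0.25, adjusted p = 0.378). Klf10, first known as a TGF-beta early gene, was at 48.0, 76.7 and 56.6 CPM in the controls and at 70.1, 60.8 and 59.7 CPM in the Insm1 libraries, and control 2 was again the highest (log2 fold change 0.07, interval -0.23 to 0.38). Klf11 was at 32.0, 35.2 and 35.4 CPM and at 33.7, 26.9 and 30.9 CPM (adjusted p = 0.531). Klf9 was at 1.56 to 3.33 CPM over the 6 libraries, and Klf14 had 8 to 23 counts.

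None of the Klf factors that bind the corepressor CtBP passed. Klf3 was at 58.4, 59.1 and 51.7 CPM in the controls and at 55.3, 55.9 and 62.6 CPM in the Insm1 libraries, with a log2 fold change of 0.04 and an interval of -0.14 to 0.22. Klf12 was at 12.4 to 15.9 CPM over the 6 libraries and Klf8 at 5.65 to 12.2 CPM. Their log2 fold changes were 0.05 (interval -0.25 to 0.36) and 0.12 (interval -0.47 to 0.71). Klf15 was at 2.42 to 4.27 CPM, and Klf17 had 1 count in 3 libraries and 0 in the rest.

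Related genes outside the set were read from lists in the same fit. Of 28 upstream factors and kinases (SRF, its partners, CREB and the ERK, JNK and p38 pathways) none was called, with a median log2 fold change of 0.03; the coactivator Crebbp was at 253 ± 7.09 and 259 ± 20.4 CPM (SD, n = 3). None of 7 Sp factors, the nearest relatives of the Klf family, and none of 7 cofactors such as Ctbp1 and Nab1 was called. Of 11 tested bZIP partners Mafk, a small Maf protein, fell 1.80-fold, from 21.3 ± 2.98 to 11.9 ± 0.568 CPM (SD, n = 3; adjusted p = 0.0136), and was called in 4 of the 6 fits with a library left out. Of 38 other tested early response genes 2 fell and none rose, with a median of -0.03. They were Cyr61 and Ctgf, which encode secreted matrix-associated proteins: Cyr61 was at 69.5, 67.7 and 66.7 CPM in the controls and at 33.2, 27.5 and 22.8 CPM in the Insm1 libraries (adjusted p = 0.00317), and Ctgf fell from 9.11 ± 0.627 to 2.28 ± 1.08 CPM (SD, n = 3; adjusted p = 0.015). Of 13 later activity-regulated genes Nrn1, a membrane-anchored protein of neurites, rose 1.47-fold (adjusted p = 0.0132), and was called in 3 of the 6 fits.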

How the data were processed

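The authors deposited whole-number counts per Ensembl gene and TPM values for the same 6 libraries. Per the labels' protocols, oligo-dT-primed, template-switched cDNA was amplified for 12 cycles, sheared, given 15 more cycles and read as single 75-base reads, a method that marks no strand; no molecular identifiers are named. GRCm38, TopHat2 2.0.13, Bowtie and bcl2fastq are listed in the submitters' processing notes. Which program counted reads is not given in the sources used here. Of the genes counted, 333 have no deposited TPM value.

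Counts were filtered by edgeR's filterByExpr, scaled by TMM and compared by edgeR 4.0.16 (R 4.3.3), in a robust quasi-likelihood model with group as its one term, tested on simulated data. P-values are two-sided and Benjamini-Hochberg adjusted over 13560 genes, with calls below 0.05. Intervals are from the standard error and the normal distribution. They are approximate, and narrower than the quasi-likelihood test implies with so few libraries. Positions and exon overlaps are from GENCODE M21, promoters from RefSeq on GRCm38.p6. Alternatives were DESeq2 1.42.0, limma 3.58.1, other scalings and filters, the replicate number as a block and each library left out. Genes and lists were chosen with earlier results of these data known. Values in every library were given for called genes, for the 17 genes at a mean of 30 CPM or more in either group and for the most extreme others; further genes were named after their values were seen.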

Additional observations from a re-analysis of the deposited data

How the results depend on the processing

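Klf6 was called lower in each of the 17 alternatives run, and Jun in 12 of them, failing with limma on TPM and without control 3, Insm1 library 2 or Insm1 library 3. Against 2 calls among these genes, DESeq2 gave 8, the filter at 5 CPM 4, and limma on log2(TPM + 1) and log2(TPM + 0.1) 1 each; with single libraries left out there were 1 to 5. Against 454 calls among all genes, DESeq2 gave 1016, limma on log2(TPM + 1) 60 and on log2(TPM + 0.1) 64, and with single libraries left out 116 (without control 3) to 645 (without control 2), including 194 without Insm1 library 2, 218 without Insm1 library 3 and 234 without control 1. The libraries share only a number: deviations of same-numbered libraries correlated at 0.0744, 0.0349 and -0.055, and not every library correlated best with its own number. The replicate block gave 331 calls, 2 of them among these genes, Klf6 and Jun. Signs of genes that were not called turned as follows, and the cause was not tested. Ier3 turned to 0.00798 with limma-voom and 0.00221 with the replicate block, and Zfp36 to 0.325 and 0.283. With limma on log2(TPM + 1) and log2(TPM + 0.1) Zfp36 was at 0.221 and 0.256, Klf3 at -0.0244 and -0.0258, Klf12 at -0.00465 and -0.0153, and Ier5 at -0.0605 and -0.0606. Ier5 was at -0.00768 with the filter at 5 CPM and -0.0096 with upper-quartile scaling. With single libraries left out log2 fold changes ran from -1.78 to 0.11 for Atf3, -0.421 to 0.189 for Egr1, -1.02 to 0.287 for Egr2, -0.565 to 0.119 for Fos, -0.449 to 0.00358 for Fosl1, -0.469 to 0.519 for Ier3, -0.0199 to 0.0496 for Ier5, -0.0331 to 0.49 for Ier5l, -0.0601 to 0.284 for Klf10, -0.0587 to 0.126 for Klf12, -1.14 to 0.456 for Klf2, -0.0198 to 0.0757 for Klf3, -0.098 to 0.509 for Klf8, -0.0556 to 0.462 for Klf9, -0.229 to 0.176 for Maff, -0.058 to 0.618 for Nr4a1 and -0.697 to 1.11 for Zfp36. Genes with few counts, such as Klf1, Klf14 and Egr2, have wide intervals at this depth.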
